A study of Homo sapiens with 18 samples.

Results

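Carbonic anhydrases are zinc enzymes that interconvert carbon dioxide and water with bicarbonate and a proton, and they are grouped by where the protein works. CA1, CA2, CA3 and CA13 are cytosolic, CA5B is mitochondrial, CA9, CA12 and CA14 are anchored in the cell membrane with the catalytic domain outside, and CA8 and CA11 are related proteins that lack the zinc-binding residues needed for catalysis. CA1 and CA2 are major proteins of red blood cells, the lineage that K562 cells resemble, and CA9 is a classical target of the hypoxia-inducible factor (HIF) that cells use to acidify their surroundings. The 10 genes described here are CA1, CA2, CA3, CA5B, CA8, CA9, CA11, CA12, CA13 and CA14, out of 28395 genes in each RNA-seq table. They were taken by symbol as members of the family, because CA9 was among the transcripts lost when wtBASP1 was introduced. The RNA-seq values of CA9 in B-K562 and V-K562 cells therefore chose the set and are given as a description without a test.

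K562 is an established human erythroleukaemia line that does not make BASP1. V-K562 cells were stably transfected with the empty vector, B-K562 cells with wild-type BASP1 (wtBASP1), and G-K562 cells with BASP1-G2A, a mutant that cannot carry the N-terminal myristoyl lipid. Each line was a drug-selected pool of stable transfectants from the same parent cells, and each was measured in 3 RNA-seq and 3 ATAC-seq libraries, 18 in all. ATAC-seq marks open chromatin by the cuts of a transposase, and the cells of all lines used for it were given DNase before harvest. P-values measure the spread between the 3 libraries of a line and do not cover differences between independently made lines. BASP1 itself had normalised read counts of 5 to 7 in V-K562 libraries, 6294 to 6965 in those of B-K562 and 8124 to 12538 in those of G-K562. From the spacing that rounding left in the values, RNA-seq libraries held 28900000 to 37000000 reads on genes, and each ATAC-seq library had between 47111 and 55570 called peaks. The K562 markers GATA1, TAL1, KLF1, HBG1, HBG2, HBE1 and TFRC were all present in every line. They also differed between the lines, as given beside the cytosolic enzymes.

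Promoter sequence is shown for the 3 genes with the most to compare with the open chromatin: CA9, whose RNA was lost, CA12, another membrane enzyme, and CA5B. Each line runs from 250 bases before to 50 bases after the RefSeq start (GRCh38.p14), read along the gene, and capitals mark ACGTG, the core of the hypoxia response element, or its reverse complement CACGT.
CA9: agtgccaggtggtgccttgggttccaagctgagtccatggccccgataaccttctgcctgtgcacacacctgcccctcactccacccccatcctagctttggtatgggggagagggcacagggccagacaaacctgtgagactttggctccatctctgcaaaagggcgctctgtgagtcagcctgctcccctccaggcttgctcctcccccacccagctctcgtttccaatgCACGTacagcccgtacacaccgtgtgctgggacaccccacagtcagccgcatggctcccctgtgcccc
CA12: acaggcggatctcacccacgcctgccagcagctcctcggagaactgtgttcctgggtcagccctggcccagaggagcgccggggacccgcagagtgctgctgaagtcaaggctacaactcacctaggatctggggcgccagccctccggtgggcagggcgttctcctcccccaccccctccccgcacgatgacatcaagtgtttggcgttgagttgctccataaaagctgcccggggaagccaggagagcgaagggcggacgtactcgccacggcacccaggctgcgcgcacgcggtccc
CA5B: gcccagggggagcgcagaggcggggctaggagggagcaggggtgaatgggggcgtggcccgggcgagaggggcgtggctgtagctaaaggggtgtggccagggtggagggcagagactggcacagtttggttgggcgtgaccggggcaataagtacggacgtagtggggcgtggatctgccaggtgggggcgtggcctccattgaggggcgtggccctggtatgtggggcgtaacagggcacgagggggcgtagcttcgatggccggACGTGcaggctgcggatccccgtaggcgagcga
The windows are chr9:35673678-35673977 on the + strand for CA9, chr15:63381797-63382096 on the - strand for CA12 and chrX:15738020-15738319 on the + strand for CA5B. The CA9 window held the motif once, 18 bases before the start on the opposite strand, and the CA5B window once, 17 bases after the start. The CA12 window and that of CA14 held none. Of all 35116 promoter windows of this length, 7518 (21.4%) held ACGTG on either strand, and a match is a description of the letters only. An ATAC-seq peak lay on the CA5B window in all 9 libraries and on the CA9, CA12 and CA14 windows in none. The other 6 members were not in the promoter table used here.

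CA9, the membrane enzyme that the set was chosen for, was lost from both BASP1 lines. Its normalised read counts were 465, 426 and 390 in the V-K562 libraries and 3, 2 and 0 in the B-K562 libraries. In the table that holds G-K562 they were 472, 433 and 398 in V-K562 and 2, 1 and 1 in G-K562. Every library of either BASP1 line was thus at or near 0, and no library of V-K562 came close to them. V-K562 values differ between the tables because each was normalised on its own, by a mean factor of 1.017, and genes outside the family are given on the scale of the table with G-K562. The summed V-K562 value was 256 times that of B-K562, with a 95% counting interval of 109 to 790, and 325.8 times that of G-K562, with an interval of 126.9 to 1197. The intervals cover counting error only. On the scale of log2(value + 1), which compresses values this low, CA9 was at -7.57 in G-K562 against V-K562 (log2 fold change with a standard error, SE, of 0.23, from limma). It entered this fit through its V-K562 values alone, and these are the libraries that chose the gene, so the difference is a description and no p is given. The BASP1 lines could not be separated for CA9 at these values, since the summed B-K562 value on the common scale was 1.25 times that of G-K562 (interval 0.27 to 6.30).

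**Figure D1:**
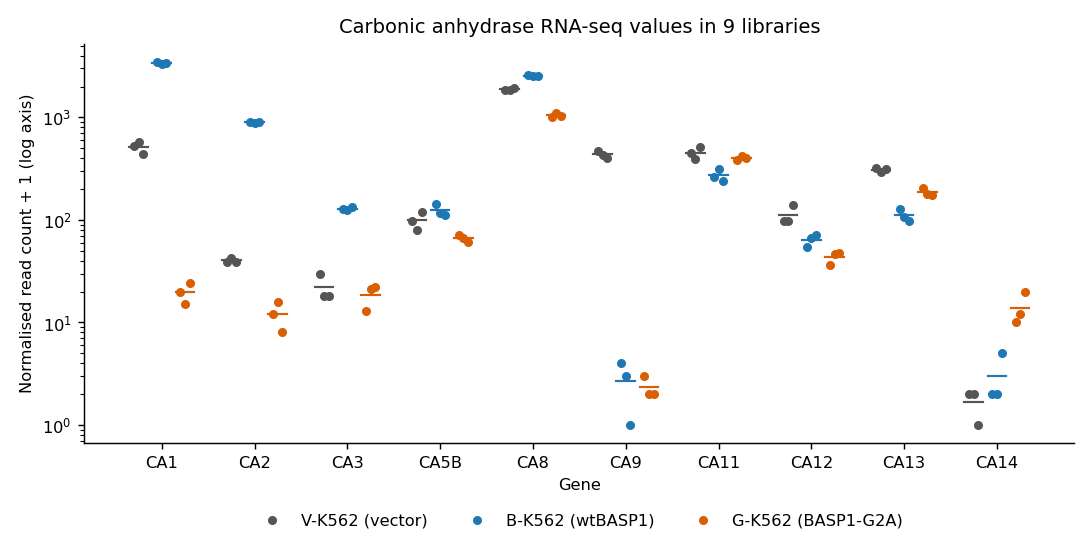
Normalised read count plus 1 on a log axis for the 10 carbonic anhydrase genes, with the B-K562 values put on the scale of the other 6 libraries. Points are single libraries, 3 a line, and short bars are their means; CA9 lies between 398 and 472 in V-K562 and at 3 or below in both BASP1 lines after rounding, while CA1 and CA2 are highest in B-K562 and lowest in G-K562.

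No change of open chromatin was called at the CA9 locus, although a fall within the gene could hardly have been called. No library of any line had a peak at the start of CA9. The only region of the gene seen in all 3 lines was at chr9:35680761-35681099, in an intron near the 3′ end, 7010 bases into a gene that spans chr9:35673918-35681159. Its summit pileup, the number of tags at the top of the peak, was 28, 33 and 44 in V-K562, 23 and 32 in 2 of the 3 B-K562 libraries, and 27, 25 and 29 in G-K562. The log2 differences from V-K562 were -0.67 in B-K562 (SE 0.27, adjusted p = 0.10, limma) and -0.68 in G-K562 (SE 0.20, adjusted p = 0.03), neither of the 2-fold size needed for a call. A region 4002 bases into the gene was called in a single B-K562 library, at 29. Of the 9 regions within 50 kb of the gene, 7 could be tested in each comparison, and 0 were called in any of them by limma. Of all regions, 7.68% were called in B-K562 and 16% in G-K562 against V-K562, and 12.9% between the BASP1 lines. Nothing is read from 0 of 7. At an unadjusted p under 0.05, 4 passed in B-K562 against V-K562, 3 in G-K562 against V-K562 and 0 between the BASP1 lines. At adjusted p alone, 2 passed in G-K562 against V-K562, the region in that intron and the one over the ARHGEF39 start, which was at 26 to 48 in V-K562 libraries, 58 to 85 in those of B-K562 and 75 to 104 in those of G-K562.

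**Figure D2:**
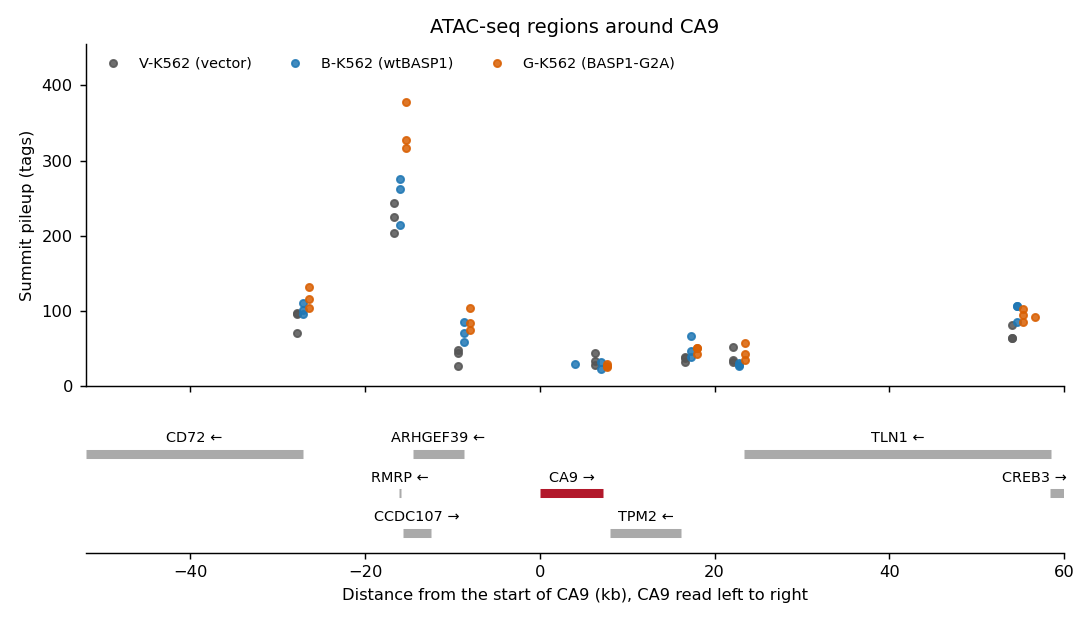
Summit pileup in tags, as deposited, of every ATAC-seq region within 50 kb of CA9, against the distance of its summit from the start of CA9 in kb. Points are single libraries (lines set slightly apart), libraries without a peak have no point, and the bars below are genes with CA9 in red; no point lies at the start of CA9 in any line.

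The genes around CA9 did not share its loss. Of the 11 genes within 100 kb with a value of at least 10 in any library, the closest was TPM2, a tropomyosin gene 834 bases beyond the end of CA9. TPM2 was at 312, 275 and 308 in V-K562, 263, 211 and 236 in B-K562 and 320, 398 and 342 in G-K562. It differed from V-K562 by a log2 fold change of -0.34 in B-K562 (adjusted p = 0.0078, limma) and 0.24 in G-K562 (adjusted p = 0.062). CD72, a B-cell surface receptor gene, was the only neighbour called in B-K562, with a log2 fold change of -1.46 (SE 0.21, adjusted p = 3e-05), while in G-K562 it was called higher at 1.01 (SE 0.17, adjusted p = 0.00031). TESK1, a kinase gene, was also called higher in G-K562, at 1.002 (SE 0.08). Both of these rises stood at the 2-fold limit. TESK1 fell under it without V-K562 replicate 2 (0.97), G-K562 replicate 1 (0.99) or G-K562 replicate 3 (0.97), and CD72 without V-K562 replicate 1 (0.95) or G-K562 replicate 3 (0.89). The log2 fold changes of all 11 ranged from -1.46 to 0.56 in B-K562 (median 0.04) and from -0.65 to 1.01 in G-K562 (median 0.30).

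By the Pearson correlation of log2(value + 1) over the 9 RNA-seq libraries, among 11416 other genes with a mean of at least 100 in V-K562, the patterns most like that of CA9 were those of SH3D21 (r = 0.991), MT1X (0.990), WDR41 (0.989), ISG20 (0.988) and AKR7A2 (0.988). With 3 lines, such a correlation says mainly that a gene was high in V-K562 and alike in the other lines, and it carries no test. MT1X encodes a metallothionein, a metal-binding protein, and had 1616 to 2476 in V-K562 libraries, 123 to 196 in those of B-K562 and 135 to 174 in those of G-K562. WDR41 and AKR7A2 had nearly the same pattern at a small size, with differences of -0.44 in both lines for WDR41.

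Because hypoxia-inducible factor is the best known activator of CA9, the genes of that pathway and its common targets were read beside it. Against V-K562, 20.6% of all 14958 genes tested were called in B-K562 cells, 6.46% as higher and 14.1% as lower, and 38.6% and 37.2% passed adjusted p alone in these directions. Of 25 HIF target genes, 14 were called lower and 0 higher, with a median log2 fold change of -1.24 against 0.01 for all genes, and 22 passed adjusted p alone as lower against 1 as higher. NDRG1, a stress-responsive gene, fell most, from 3376 to 3640 in V-K562 to 181 to 196 in B-K562, a log2 fold change of -4.23 (adjusted p = 1.8e-14, limma). In G-K562 cells 19.1% of 15271 genes were called, 8.81% as higher and 10.3% as lower, and 33.5% and 33.3% passed adjusted p alone. There 13 of the 25 targets were called lower and 2 higher, with a median of -1.12. PFKFB4, a regulator of glycolysis, fell most at -3.53 (adjusted p = 8e-11). ANGPTL4, a secreted regulator of lipid uptake, was called higher in G-K562 at 1.85 (adjusted p = 4.8e-06). It had 25 to 37 in V-K562 libraries, 6 to 10 in those of B-K562 and 101 to 130 in those of G-K562. Its fall of -1.97 in B-K562 is a description, since its V-K562 values carried it past the filter on low values there. The same holds for ADM, at 62 to 82 in V-K562 libraries and 9 to 16 in those of B-K562. Both are among the 14 counted as lower in B-K562, and for them the filter favoured a fall. These comparisons share the V-K562 libraries.

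The pathway's own genes moved less. Of 10 genes of the HIF pathway 8 were tested, and limma called 0 in either BASP1 line against V-K562, beside 20.6% of all genes in B-K562 and 19.1% in G-K562. At adjusted p alone 6 passed in each line. Of all genes, 38.6% passed so as higher and 37.2% as lower in B-K562, and 33.5% and 33.3% in G-K562, so nothing is read from the 6. HIF1A, an oxygen-regulated subunit, had 1756 to 1778 in V-K562 libraries, 1891 to 1998 in those of B-K562 and 1256 to 1310 in those of G-K562, with log2 fold changes of 0.13 (adjusted p = 0.027) and -0.45 (adjusted p = 2.8e-05). EPAS1, which encodes the related HIF-2 subunit, had 1762 to 2081 in V-K562 libraries, 907 to 984 in those of B-K562 and 2663 to 2845 in those of G-K562. Its log2 fold changes were -0.98 in B-K562 (adjusted p = 1.3e-08), just inside 2-fold (-1.03 and called without V-K562 replicate 2), and 0.56 in G-K562 (adjusted p = 2.8e-05). ARNT, the constant partner subunit, was lower in both lines, by -0.49 and -0.58 (adjusted p = 6.6e-06 and 4.7e-05). VHL, which marks the oxygen-regulated subunits for breakdown, was at -0.55 in B-K562 (adjusted p = 5.1e-08) and 0.07 in G-K562 (adjusted p = 0.28). What these levels had to do with CA9 was not tested.

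The cytosolic enzymes moved in the opposite direction to CA9 in B-K562 cells. CA2, a fast enzyme of red cells, was at 38, 41 and 37 in V-K562 and at 896, 874 and 888 in B-K562. CA1, the most abundant carbonic anhydrase of red cells, was at 518, 564 and 429 in V-K562 and at 3402, 3288 and 3332 in B-K562. CA3, known mainly from muscle, was at 29, 17 and 17 in V-K562 and at 124, 122 and 131 in B-K562. For each gene all B-K562 libraries lay above all V-K562 libraries. The log2 fold changes were 4.48 for CA2 (SE 0.09, adjusted p = 4.7e-13, limma), 2.74 for CA1 (SE 0.08, adjusted p = 9.2e-12) and 2.57 for CA3 (SE 0.21, adjusted p = 7.7e-08), or 22.4-fold, 6.66-fold and 5.93-fold. CA13, the remaining cytosolic member, went the other way, from 315, 286 and 309 to 125, 104 and 96, a log2 fold change of -1.48 (SE 0.11, adjusted p = 4.6e-08).

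In G-K562 cells CA1 was nearly lost. Its values were 19, 14 and 23 against 526, 573 and 437 in V-K562, 26.4-fold lower on the log2(value + 1) scale (log2 fold change -4.72, SE 0.18, adjusted p = 2.6e-09, limma). CA2 was at 11, 15 and 7 against 38, 42 and 38, with a log2 fold change of -1.80 (SE 0.28). It met the filter on low values through V-K562, since only 2 G-K562 libraries reached 10. The difference is therefore a description and no p is given. Where every library had to reach 10 it was not tested. CA3, at 12, 20 and 21 against 29, 17 and 17, overlapped with V-K562 (log2 fold change -0.23, SE 0.31, adjusted p = 0.52). CA13 was at 203, 180 and 174 against 320, 290 and 316, lower by less than 2-fold (log2 fold change -0.73, adjusted p = 6.4e-05).

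The BASP1 lines thus lay on either side of V-K562 for CA1 and CA2. Between G-K562 and B-K562 the log2 differences were -7.46 for CA1 (SE 0.14, adjusted p = 3.2e-14, limma on all 9 libraries), -6.29 for CA2 (SE 0.20, adjusted p = 2.7e-12) and -2.82 for CA3 (SE 0.25, adjusted p = 1.1e-07). CA13 was the exception, above B-K562 in G-K562 by 0.75 (adjusted p = 3.1e-05). Across all genes tested between these lines 29.9% were called, 17.4% as higher and 12.5% as lower in G-K562.

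**Figure D3:**
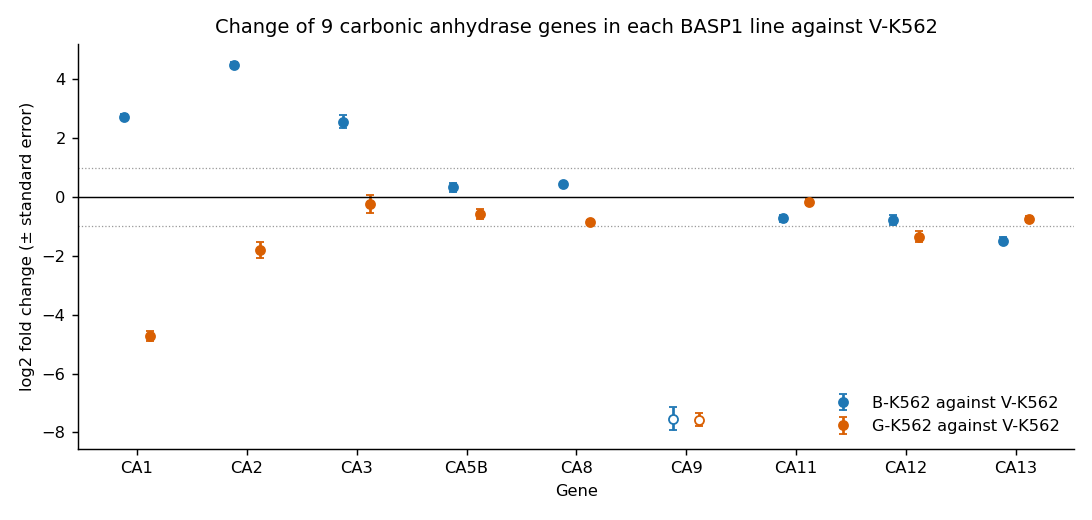
Log2 fold change of log2(value + 1) with its standard error for 9 carbonic anhydrase genes in B-K562 (blue) and G-K562 (orange) against the same V-K562 libraries, with dotted lines at a 2-fold change. CA9, drawn open because it chose the set, is near -7.5 in both lines, whereas CA1 is at 2.74 in B-K562 and -4.72 in G-K562.

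The erythroid markers were higher in B-K562, as CA1 and CA2 were, and all but TFRC were lower in G-K562. All 7 K562 markers passed adjusted p alone as higher in B-K562, beside 38.6% of all genes, although 0 reached 2-fold. In G-K562 6 were lower at adjusted p alone, beside 33.3% of all genes, and 4 of them were called, beside 10.3%. TFRC, the transferrin receptor gene, went the other way in G-K562 (log2 fold change 0.56, adjusted p = 5e-05, limma), with 20453 to 22731 in V-K562 libraries, 38485 to 41040 in those of B-K562 and 28864 to 35087 in those of G-K562. HBG1, a fetal globin gene, had 7499 to 9980 in V-K562 libraries, 13281 to 15044 in those of B-K562 and 1055 to 1439 in those of G-K562. The summed value of the 7 markers was 123142 to 138225 in V-K562 libraries, 203404 to 206979 in B-K562 libraries and 68015 to 73588 in G-K562 libraries, where TFRC was its largest part. In bulk RNA, fewer cells of an erythroid kind and less RNA per cell cannot be told apart. Of 7 markers of lymphocytes, epithelium and endothelium, 3 could be tested and 0 were called by limma in B-K562 or G-K562 against V-K562, where 1 and 3 passed adjusted p alone and 2 and 3 passed at an unadjusted p under 0.05. Of all genes 20.6% and 19.1% were called there, so nothing is read from 0 of 3. The summed values of the 7 markers of other cell types were 1877 to 2239 in V-K562, 1933 to 1948 with wtBASP1 and 1752 to 1939 with BASP1-G2A. Most of each sum was EPCAM, at 1129 to 1731 over all libraries, and PECAM1, at 307 to 624, so both were expressed in every line. CDH1 was at 40 in V-K562 replicate 1 and at 5 or below in all other libraries, and MS4A1 was at 0 in every library. What part the shifts of the K562 markers had in the carbonic anhydrase values was not tested.

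CA13, CA1, CA3 and CA2 lie together on chromosome 8, between 85245487 and 85481492, and each of their starts had an ATAC-seq region of its own. The region at the CA1 start, chr8:85378056-85378466, overlaps a UTR of CA1 in the annotation. Its summit pileup was 53, 63 and 66 in V-K562 and 88, 82 and 85 in B-K562, and no G-K562 library had a peak there. A region 5206 bases upstream of CA1, at chr8:85383107-85383738, was at 34, 48 and 46 in V-K562, at 90, 96 and 61 in B-K562 and again without a peak in G-K562. The log2 fold changes of G-K562 against V-K562 were -1.94 at the start and -1.43 upstream. They are descriptions, since both regions entered the comparison through their V-K562 peaks alone and each G-K562 library was given the value of 17 tags used where no peak was called. In B-K562 they were 0.33 (adjusted p = 0.096, limma) and 0.77 (adjusted p = 0.033), neither called.

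The region before CA2, at chr8:85463170-85464052, was at 41, 53 and 34 in V-K562, 89, 94 and 89 in B-K562 and 53, 61 and 39 in G-K562. The B-K562 libraries were above all others. The log2 fold change was 0.94 in B-K562 (SE 0.18, adjusted p = 0.0083, limma), just under 2-fold but called at 1.09 without V-K562 replicate 2, and -0.09 in G-K562 (SE 0.25, adjusted p = 0.79), so that the fall of CA2 RNA in G-K562 came without a detectable fall at this region. At the CA3 start, chr8:85438426-85438997, only the B-K562 libraries had a peak, at 26, 19 and 18, close to the assigned value of 17, and the log2 difference from V-K562 was 0.20. The region over the CA13 start, chr8:85245210-85246204, was at 66, 87 and 63 in V-K562, 81, 72 and 76 in B-K562 and 67, 83 and 81 in G-K562. These libraries overlapped among all lines while CA13 RNA differed, and the log2 fold changes were -0.05 (adjusted p = 0.81) and -0.24 (adjusted p = 0.28). Inside CA13, at chr8:85264631-85264953, a region was found in V-K562 only, at 32, 36 and 23, with log2 differences of -0.85 and -0.95 from it that again rest on the assigned value in every library of the other line.

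**Figure D4:**
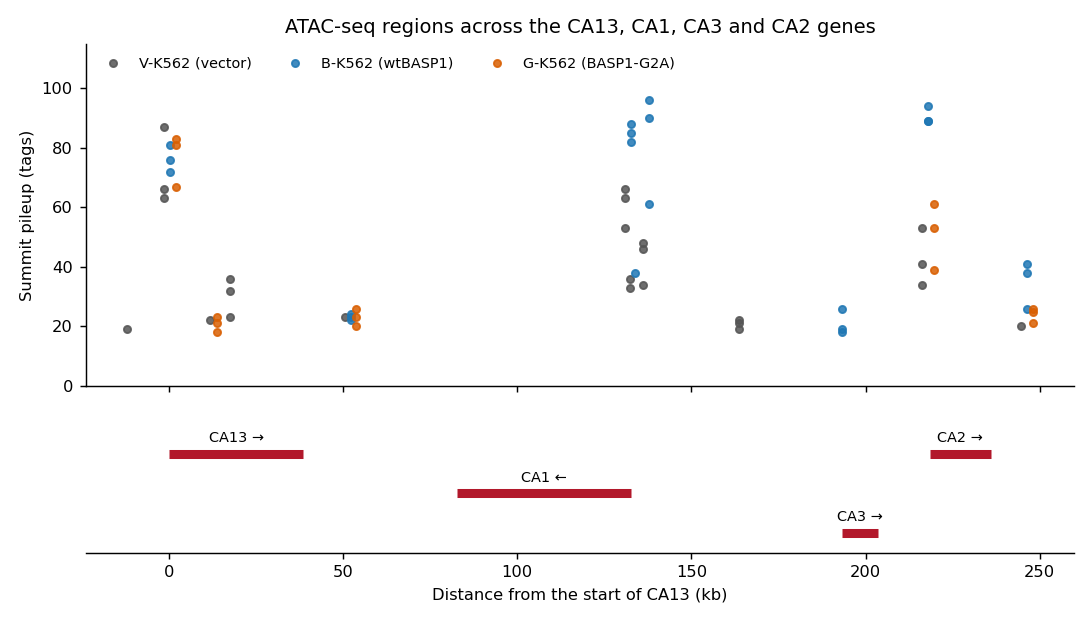
Summit pileup in tags, as deposited, of the ATAC-seq regions from 20 kb before CA13 to 20 kb after CA2, against the distance from the start of CA13 in kb. Points are single libraries (lines set slightly apart), libraries without a peak have no point, and red bars below are the genes with their direction; the pair of regions at and upstream of the CA1 start has no G-K562 point and its highest values are those of B-K562.

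Of the 3 other genes within 100 kb of the cluster that reached a value of 10, LRRCC1, E2F5 and C8orf59, limma called 0 in any comparison, with log2 fold changes of -0.02 to 0.59 for B-K562 and of -0.33 to 0.79 for G-K562, and 1 and 2 of them passed adjusted p alone. CA3-AS1, an antisense RNA whose span overlaps CA3 by 7235 bases and CA2 by 1014 bases, was at 1 to 3 in V-K562 libraries, 7 to 8 in those of B-K562 and 0 in those of G-K562. Whether reads were counted by strand is not given in the sources used here, but these values are small beside those of CA2 and CA3.

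Among the other membrane enzymes, CA12 was lower in both BASP1 lines and CA14 appeared in G-K562. CA12, which like CA9 acts outside the cell, was at 95, 94 and 137 in V-K562 and 53, 64 and 69 in B-K562, a log2 fold change of -0.79 (SE 0.17, adjusted p = 0.00091, limma) that was under 2-fold. In G-K562 it was at 35, 46 and 47 against 96, 96 and 140, and it was called lower at -1.34 (SE 0.19, adjusted p = 8.2e-05). The CA12 start had no peak in any library. Within the gene 7 regions were found, none in all 9 libraries, and 3 of them in introns were called lower in B-K562, at 9598, 19646 and 37022 bases from the start. Each had 3 V-K562 peaks but a single one in B-K562, so that the V-K562 peaks carried it past the filter and most B-K562 values are the assigned 17. None could be tested where a peak in every library was required, and the differences are given as a description. The region at chr15:63344915-63345390 was at 32, 47 and 45 in V-K562, at 21 in a single B-K562 library, and at 26, 25 and 33 in G-K562, with log2 fold changes of -1.23 in B-K562 and -0.88 in G-K562 (SE 0.21, adjusted p = 0.013), the latter called at -1.04 without V-K562 replicate 1. The region at 9598 bases, at -1.14, lost its call without V-K562 replicate 2 (-0.98). The region at 19646 bases, at -1.12, lost its call without any V-K562 replicate or without B-K562 replicate 1 or 3, and kept it only without B-K562 replicate 2, with values of -1.49 to -0.91. CA14 was at 1, 1 and 0 in V-K562, 1, 1 and 4 in B-K562 and 9, 11 and 19 in G-K562. It passed the filter on low values in no comparison and was not tested. The summed G-K562 value was 19.5 times that of V-K562, with a counting interval of 5.05 to 166.7, and the G-K562 libraries lay above all others. Its nearest region, 1607 bases before the start, was present in all 9 libraries with overlapping values of 29 to 73.

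CA5B, the mitochondrial enzyme, was at 96, 77 and 117 in V-K562, 140, 113 and 110 in B-K562 and 70, 65 and 60 in G-K562. The B-K562 and V-K562 libraries overlapped (log2 fold change 0.33, SE 0.16, adjusted p = 0.074, limma), and G-K562 was lower by less than 2-fold (-0.57, SE 0.17, adjusted p = 0.013). Its pseudogene CA5BP1 followed the same order, at 270 to 333, 417 to 457 and 127 to 133, and was called lower in G-K562 (log2 fold change -1.17, adjusted p = 3.4e-06). Reads of similar copies could be split between the pair by the counting, so both values are uncertain. The region at the CA5B start, chrX:15737754-15738386, which covers the window printed above, was at 90, 108 and 117 in V-K562, 140, 140 and 121 in B-K562 and 92, 93 and 99 in G-K562, with log2 fold changes of 0.20 (adjusted p = 0.26) and -0.49 (adjusted p = 0.015). The pileups as deposited had means of 105 in V-K562 and 94.7 in G-K562, so most of the latter difference came from the scaling of libraries. An intronic region 9782 bases into CA5B, chrX:15747816-15748259, was at 38, 39 and 37 in V-K562 and 45, 42 and 52 in B-K562. In G-K562 it was at 24 and 20 in 2 of the 3 libraries, and it was called lower there at -1.16. Its V-K562 peaks carried it past the filter, and the G-K562 library without a peak was given the value of 17 tags. The call was lost without scaling (-0.88) and with mean pileup (-0.79), so the difference is given as a description.

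The catalytically inactive members each differed from V-K562 by less than 2-fold. CA8, which binds the inositol trisphosphate receptor, was at 1836, 1839 and 1895 in V-K562, 2524, 2516 and 2482 in B-K562 and 1009, 1113 and 1039 in G-K562. The lines did not overlap, and the log2 fold changes were 0.43 in B-K562 (SE 0.05, adjusted p = 1.2e-06, limma) and -0.84 in G-K562 (SE 0.06, adjusted p = 3.9e-07), both under 2-fold, while G-K562 was called lower than B-K562 at -1.28 (SE 0.05, adjusted p = 2.2e-11). The region over the CA8 start, chr8:60280947-60281669, was at 110, 98 and 91 in V-K562, 110, 117 and 147 in B-K562 and 100, 127 and 127 in G-K562, and overlapped in all lines. Away from the start, a region in a CA8 intron at chr8:60236848-60237202 was at 41, 53 and 43 in V-K562, 34, 40 and 40 in B-K562 and without a peak in G-K562, a log2 difference of -1.54 from V-K562 that rests on the assigned value of 17 in every G-K562 library. CA11, a secreted relative, was at 442, 383 and 499 in V-K562, 258, 310 and 234 in B-K562 and 379, 424 and 400 in G-K562. It was lower in B-K562 by a log2 fold change of -0.72 (SE 0.12, adjusted p = 6.4e-05) and overlapped with V-K562 in G-K562 (-0.16, SE 0.10, adjusted p = 0.21). The region before its start, chr19:48646401-48646923, was at 88, 80 and 87 in V-K562, 86, 108 and 90 in B-K562 and 154, 133 and 130 in G-K562, with a log2 fold change of 0.35 in G-K562 (adjusted p = 0.039).

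**Figure D5:**
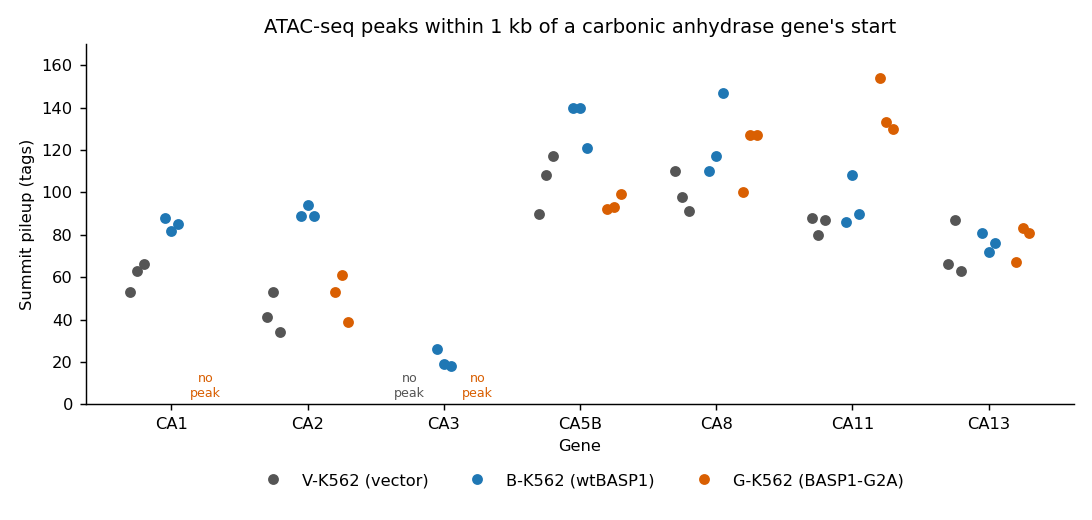
Summit pileup in tags, as deposited, of the ATAC-seq region nearest the start of each of the 7 members with a region within 1000 bases of its start. Points are single libraries, 3 a line, and a line without a peak in any library is marked; CA1 has no G-K562 peak, CA3 has a peak in B-K562 only, and CA9, CA12 and CA14 have no such region.

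Ordered by value per kb of exon, the scale on which genes can be compared, the family had a different leading member in each BASP1 line. In V-K562 the highest means were those of CA8 (442.5 ± 9.21 per kb, SD, n = 3), CA1 (339 ± 45.7), CA11 (272 ± 36.6) and CA9 (261 ± 22.3), of which CA1, CA11 and CA9 overlapped with their neighbours in the order. In B-K562 CA1 led at 2248 ± 38.7 per kb, followed by CA8 at 597 ± 5.31 and CA2 at 541 ± 6.80, all apart from each other, and CA9 was ninth at 1.02 ± 0.93. In G-K562 CA8 (247 ± 12.5) and CA11 (243 ± 13.6) led without being separable, CA1 was at 12.4 ± 2.98 and CA9 was last at 0.80 ± 0.35. CA14 was last in V-K562 and B-K562. The other carbonic anhydrase genes in the tables, CA4, CA5A, CA6, CA7 and CA10, had values of at most 8 in any library.

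Counted over the 8 members other than CA9 that were tested, 3 were called higher and 1 lower in B-K562, where 20.6% of all genes were called and where the comparison had already chosen the set, so nothing is read from the count. In G-K562 3 of the 8 were called lower and 0 higher, beside 19.1% of all genes, 3 more passed adjusted p alone as lower, and all 8 had a log2 fold change below 0 (median -0.79, against 0.00 for all genes). The 3 include CA2, which met the filter on low values there through V-K562. Between G-K562 and B-K562 4 of the 8 were called lower and 0 higher, beside 29.9% of all genes. Of the 36 ATAC-seq regions within 5 kb of a member, 26 could be tested in B-K562 and 3 were called, all lower and all in CA12, beside 7.68% of all 52204 regions (1.53% higher and 6.15% lower). In G-K562 4 of 24 were called lower, beside 16% of 54213 regions (2.87% higher and 13.1% lower), and between the BASP1 lines 6 of 28 were called lower in G-K562, beside 12.9% of 60181 (4.28% higher and 8.6% lower). Of these calls, 3 of the 4 and 4 of the 6 were of regions without a peak in any G-K562 library, where the filter and the assigned value set the direction, so the counts are given as a description. The split of all called regions depended on scaling, 797 higher and 3211 lower in B-K562 and 1556 and 7124 in G-K562 with the trimmed mean, but 1186 and 2311, and 4324 and 4595, without it. Scaling moved the median of all regions by 0.12 in B-K562 and 0.28 in G-K562 on the log2 scale. Without it the member regions called in B-K562 were 2 higher and 2 lower.

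Against V-K562, the transporter genes read beside the carbonic anhydrases were called about as often as all genes. Of 18 genes of the SLC4 and SLC26 families, taken by family name and not each a bicarbonate transporter, 14 were tested. In B-K562 1 was called higher and 2 lower, and in G-K562 2 were called higher and 0 lower. SLC4A1, the anion exchanger of the red cell membrane, had 733 to 868 in V-K562 libraries, 1708 to 1822 in those of B-K562 and 399 to 525 in those of G-K562, the same order as CA1 and CA2. It was called higher in B-K562 (log2 fold change 1.10, adjusted p = 6.3e-09, limma) and was at -0.78 in G-K562 (adjusted p = 8.3e-05). SLC26A9 fell most in B-K562, at -2.65, from 26 to 32 in V-K562 libraries to 2 to 6 in those of B-K562. It entered this comparison through V-K562 alone, so the fall is a description and no p is given, although it is 1 of the 2 counted as lower. SLC4A11 rose most in G-K562, at 1.66 (adjusted p = 4.7e-05). Of 9 genes of proton and lactate export and gas channels 8 were tested, with 1 called in B-K562 and 2 in G-K562. SLC16A3, a lactate exporter, had 122 to 205 in V-K562 libraries, 27 to 40 in those of B-K562 and 242 to 298 in those of G-K562, called lower in B-K562 at -2.26 (adjusted p = 2e-07). AQP1, a water channel of red cells, was called lower in G-K562 at -1.89 (adjusted p = 1.9e-08) and was at 0.35 in B-K562 (adjusted p = 0.0012), and the proton channel gene HVCN1 was called higher in G-K562 at 1.38 (adjusted p = 5.3e-05). The counts, 3 (with SLC26A9) and 2 of 14 SLC4 and SLC26 genes and 1 and 2 of 8 of the others, are near the 20.6% and 19.1% of all genes called in these comparisons. Between G-K562 and B-K562, 5 of the 14 were called higher and 1 lower, and 2 of the 8 higher and 1 lower. There 29.9% of all genes were called, 17.4% as higher and 12.5% as lower, and nothing is read from these small counts.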

How the data were processed

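Each assay was analysed in 3 libraries of every line (V-K562, B-K562, G-K562). The authors aligned RNA-seq reads to GRCh38 with STAR, counted unique reads on RefSeq genes and divided the counts by DESeq2 size factors. The deposited score of a gene is this normalised count rounded to a whole number, with 1 table per BASP1 line, each holding the V-K562 libraries too. The deposited gene length, the other column read, is the authors' merged exon length in bases. The authors' own fold changes and adjusted p-values in the tables were not used. For ATAC-seq, the authors sampled libraries to an equal number of tags and called peaks with MACS2 per library, and the deposited signal is the pileup of tags at the summit or averaged over the interval.

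Genes that reached 10 in 3 or more libraries were tested on log2(value + 1) with limma 3.58.1 (trend in the prior variance, R 4.3.3) and Benjamini-Hochberg adjustment over all genes, and a call needed an adjusted p of 0.05 or less together with a 2-fold change (1 on the log2 scale). A fit of all 9 libraries compared the BASP1 lines, with B-K562 values multiplied by 1.017, the mean ratio of the V-K562 columns. Peaks were merged into 85549 regions, summit pileups were scaled by a trimmed mean, a missing value or one under 17 tags, the 5th percentile, became 17, and regions with a peak in at least 3 libraries were tested likewise. An absent peak is not an absence of tags. Regions within 5000 bases of a member were assigned to it, starts were written 1-based, and features are those of GENCODE v44. Counting intervals are exact 95% intervals for a ratio of sums. The scripts were tested on simulated data. Tables and figures used Python 3.11.15, pandas 2.3.3, scipy 1.17.1 and matplotlib 3.10.9.

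All 10 members are named, with the 5 genes most like CA9, neighbours within 100 kb, and from each list the largest called change each way plus HIF1A, EPAS1, ARNT, VHL and SLC4A1. The ARHGEF39 start region, MT1X, WDR41, TPM2, ADM, CA3-AS1, EPCAM, PECAM1, CDH1 and MS4A1 are described further as examples. A pair of marker genes is not reported here. The members and lists were chosen with earlier results of these data known. The alternatives were other pseudocounts, filters, scalings and windows, mean pileup, no trend, a replicate block, adjusted p alone and each library left out.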

Additional observations from a re-analysis of the deposited data

Results flagged for a closer look

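Of the members, 4 differed between G-K562 and B-K562 cells by at least 2-fold in the fit of all 9 RNA-seq libraries (limma, adjusted p of at most 0.05), each lower in G-K562. The log2 differences of G-K562 from B-K562 were -7.46 for CA1, -6.29 for CA2, -2.82 for CA3 and -1.28 for CA8. In all 4 every G-K562 library lay below every B-K562 library. CA9 is not among them, because both lines were near 0.

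Of the 36 ATAC-seq regions near members, 6 differed likewise, again lower in G-K562. They were the regions at the CA1 start (-2.27) and 5206 bases upstream of it (-2.20), the region 542 bases before CA2 (-1.05), the region 9782 bases into CA5B (-1.29), and the regions 44371 bases into CA8 (-1.13) and 3757 bases before it (-1.68). The CA1 and CA8 regions had no peak in any G-K562 library, so their differences rest on the value of 17 assigned there. The last was at 46, 54 and 70 in B-K562, at 38 and 29 in 2 of the 3 V-K562 libraries, and without a peak in G-K562. The CA2 region lost its call without G-K562 replicate 3 (-0.85), without scaling (-0.84) and with mean pileup (-0.71). The CA5B region, with a peak in 2 of the 3 G-K562 libraries, lost its call with mean pileup (-0.86), as did the region 44371 bases into CA8 (-0.71).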

How the results depend on the processing

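The RNA-seq calls of the 8 members other than CA9 held under every alternative pseudocount, rescaling, prior and left-out library, with 4, 3 and 4 called in B-K562 against V-K562, G-K562 against V-K562 and G-K562 against B-K562 each time. Adjusted p alone gave 7, 6 and 8. With at least 10 in every library, CA2 was no longer tested in G-K562 and the latter counts became 2 and 3. With no filter CA14 was called higher in G-K562 in both, giving 4 and 5. In RNA-seq, the same-numbered libraries of different lines did not deviate together (correlations of -0.08 to 0.14). In ATAC-seq these correlations were small but all positive, 0.0071 to 0.12. There they were 0.088 to 0.12 between replicate 1 libraries, and -0.084 to -0.033 between replicate 1 and the other numbers. Whether the numbers pair the ATAC-seq libraries was not tested further. A replicate block left the counts at 4, 3 and 4 for genes and 3, 4 and 6 for regions. Over all genes, 1933 rather than 2919 were called in G-K562 against V-K562 when at least 10 in every library was required.

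The calls of member regions, 3, 4 and 6 in the same order, were less stable. They fell to 0, 0 and 1 where a peak in every library was required, since this drops regions lost in a line, and to 0, 2 and 3 with mean pileup in place of the summit. Adjusted p alone gave 8 and 11 in the first pair. With single libraries left out they ranged from 2 to 3, from 4 to 5 and from 5 to 6. Over all regions, setting values below 10 to 10, requiring a peak in every library and mean pileup gave 7702, 1247 and 1564 in place of 4008 in B-K562, 13602, 2826 and 4592 in place of 8680 in G-K562, and 12364, 2443 and 4499 in place of 7754 between the BASP1 lines. Without scaling, 4160 regions were higher and 4502 lower in G-K562 than in B-K562, in place of 2577 and 5177. The causes of these shifts were otherwise not tested.

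Changes of sign were seen only for differences near 0 that were not called. Without scaling, the log2 difference became 0.15 at the CA11 start region and 0.10 at the CA13 start region in B-K562, 0.25 at CA2, 0.24 at the CA8 start and 0.10 at the CA13 start in G-K562, and 0.0077 at the CA13 start between the BASP1 lines. With mean pileup the CA9 region was at -0.094 between the BASP1 lines. TESK1 was at 0.0026 in B-K562 with rescaling, and CA9 at 0.11 between the BASP1 lines with a pseudocount of 0.5. With single libraries left out, the ranges were -0.050 to 0.038 for TESK1, -0.092 to 0.088 at the CA11 start and -0.14 to 0.072 at the CA13 start in B-K562, -0.37 to 0.014 for CA3, -0.24 to 0.13 at CA2 and -0.18 to 0.024 at the CA8 start in G-K562, and -0.61 to 0.39 for CA9 RNA and -0.21 to 0.24 for the CA9 region between the BASP1 lines. At values of 0 to 3, CA9 allows no comparison of the BASP1 lines, and pileups near 17 tags cannot show a fall.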
